A study of Mus musculus with 6 samples.

Results

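The transcripts of 10 circadian clock genes were examined in BCR-ABL1-transformed mouse B cell precursors labelled wild type or knockout for the ETS-family transcription factor Etv5. The genes were Bhlhe40, Bhlhe41, Arntl, Clock, Per1, Per2, Per3, Cry1, Cry2 and Dbp, and all 10 were found among the 19938 genes that the platform's annotation pairs with a single-gene probe set. They were chosen by name, with differences between knockout and wild type already in view, so their differences are given here as a description and not as a test. Of a gene's probe sets the brightest, by its average across arrays, was to be used; each of the 10 genes had a single one, so that step chose nothing among them.

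RNA came from 3 wild-type samples and 3 Etv5 knockout samples. All 6 were leukemia cells of strain 129SvEv, labelled as pre-B cells transformed by BCR-ABL1, a constitutively active tyrosine kinase made by the Philadelphia translocation, and the genotype at Etv5 is the single labelled difference. The labels state neither the form of the knockout allele, nor the mouse or culture behind each sample, nor the time of day or time in culture at harvest. The spread between samples may therefore be technical, and p-values set the genotype difference against that spread alone.

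The mammalian clock is a feedback loop of transcription. ARNTL (also called BMAL1) and CLOCK form a dimer that binds E-box sequences and activates the Per, Cry, Nr1d and Dbp genes; PER and CRY proteins then repress the dimer. BHLHE40 and BHLHE41, also known as DEC1 and DEC2, are basic helix-loop-helix repressors that bind the same E-boxes and act on the clock, and outside it they are known from lymphocytes, where BHLHE41 is needed for the B-1a cell lineage.

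The promoter windows printed here were picked because they hold a binding motif of the loop, both in genes whose signal was called different between genotypes and in genes whose signal was not. The sequences are RefSeq's for assembly GRCm38.p6, which held promoters for 8 of the 10 genes (Bhlhe40 and Per2 are named only); each line is the 250 bases before a transcript start, 5′ to 3′ on the gene's strand, in lower case with E-boxes (CACGTG) and D-boxes (TTATGTAA, the site of DBP and its relatives) in capitals.
Bhlhe41: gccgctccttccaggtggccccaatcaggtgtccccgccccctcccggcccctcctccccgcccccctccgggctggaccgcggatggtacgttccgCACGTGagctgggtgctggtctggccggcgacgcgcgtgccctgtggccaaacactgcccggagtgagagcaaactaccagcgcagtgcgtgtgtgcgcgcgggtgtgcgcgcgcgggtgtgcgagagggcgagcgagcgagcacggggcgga
Per1: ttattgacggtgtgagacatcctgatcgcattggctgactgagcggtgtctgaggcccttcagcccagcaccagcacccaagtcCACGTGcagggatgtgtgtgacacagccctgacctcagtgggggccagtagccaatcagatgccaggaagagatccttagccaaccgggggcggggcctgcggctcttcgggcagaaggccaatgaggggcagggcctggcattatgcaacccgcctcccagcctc
Cry1: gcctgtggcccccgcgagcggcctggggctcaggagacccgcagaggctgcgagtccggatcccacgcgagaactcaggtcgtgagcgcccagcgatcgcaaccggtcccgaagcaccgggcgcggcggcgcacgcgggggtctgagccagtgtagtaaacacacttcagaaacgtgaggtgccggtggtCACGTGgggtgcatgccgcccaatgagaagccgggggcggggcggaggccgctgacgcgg
Per3: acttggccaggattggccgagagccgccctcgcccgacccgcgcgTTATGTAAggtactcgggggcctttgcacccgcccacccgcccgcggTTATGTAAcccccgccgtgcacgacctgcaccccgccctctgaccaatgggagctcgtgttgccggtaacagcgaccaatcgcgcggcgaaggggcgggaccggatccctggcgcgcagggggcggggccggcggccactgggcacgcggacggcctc
Ciart: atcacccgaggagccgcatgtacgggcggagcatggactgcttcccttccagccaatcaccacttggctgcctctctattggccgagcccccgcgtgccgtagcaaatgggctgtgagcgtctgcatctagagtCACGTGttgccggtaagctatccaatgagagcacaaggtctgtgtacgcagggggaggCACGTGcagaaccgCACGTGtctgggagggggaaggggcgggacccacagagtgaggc
Tef: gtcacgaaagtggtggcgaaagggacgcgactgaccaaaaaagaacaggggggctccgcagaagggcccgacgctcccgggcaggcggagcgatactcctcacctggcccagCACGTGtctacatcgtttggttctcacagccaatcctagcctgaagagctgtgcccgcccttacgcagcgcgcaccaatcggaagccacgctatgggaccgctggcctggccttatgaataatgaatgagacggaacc

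The Bhlhe41 window (chr6:145865421-145865670, minus strand) held 1 E-box beginning 153 bases before the start. The Per1 window (chr11:69098699-69098948, plus strand) held 1 at 166 bases and the Cry1 window (chr10:85185055-85185304, minus strand) 1 at 60 bases. Per3 (chr4:151044666-151044915, minus strand) had 2 D-boxes, at 205 and 158 bases, and no E-box in this window. Ciart (chr3:95882229-95882478, minus strand), which encodes a repressor of the ARNTL and CLOCK dimer, had 3 E-boxes, at 116, 58 and 44 bases, and Tef (chr15:81811164-81811413, plus strand), a relative of Dbp, had 1 at 138 bases. Another Tef promoter in the same table also held an E-box, and another Per1 promoter held none.

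Of the 8 genes with a promoter, 3 held an E-box (Bhlhe41, Per1 and Cry1) and 1 a D-box. Among all 27025 genes with a promoter in the table, 6.86% held the E-box and 0.977% the D-box in any of their promoters, read on both strands of the same 250 bases; of all 32851 promoters the shares were 6.02% and 0.819%. Of 24 further clock genes with a promoter, 3 held an E-box (Ciart, Tef and Sirt1) and 1 a D-box (Timeless). Csnk1e, the further clock gene with the largest difference, had 4 windows, with neither motif in any. The nuclear receptor half-site AGGTCA was present for Clock and Per1 and for 15.8% of all genes. The ETS motif CCGGAAGT was found in none of the 8 genes, in 1 of the 24 further clock genes (Fbxl21) and for 3.23% of all genes. At so low a share, its absence from 8 genes says little. No matches of different motifs overlapped in the printed windows. These are matches of letters, and whether any factor binds there was not measured.

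The array scale has to be read before the values. Each value is a log2 probe-set signal, so 1 unit is a doubling, and levels of different genes cannot be set against each other because their probes differ. As a guide to dim signal, the 1035 probe sets of olfactory receptor genes, which B lineage cells are not known to use, had a median of 5.64 and a 95th percentile of 7.28 over the 6 arrays; a group mean under 7.28 is called dim. Of 30 measured cell type markers, the 11 of B cell precursors were above that level in both genotypes, with group means from 9.25 to 14.29; by limma Pax5, a B lineage transcription factor, rose by 0.43 (adjusted p = 0.0127), Dntt, the terminal transferase of early lymphocytes, fell by 0.37 on the log2 scale (adjusted p = 0.0132) and 9 did not pass. Of the others, 3 of 5 for T cells, 2 of 2 for NK cells, 4 of 7 for myeloid cells, 1 of 1 for erythroid cells and 2 of 4 for stromal and endothelial cells were dim in both. Over all genes, 4.43% were called. Among the markers of these other cell types, 1 passed the test, the myeloid marker Ly6g. It was dim at 6.55 ± 0.25 in the wild type and rose to 7.69 ± 0.21 in the knockout (SD, n = 3; limma adjusted p = 0.0156). The other 6 myeloid markers differed by -0.32 (Lyz2) to 0.05 (Elane), and the median of the 7 was -0.02. Etv5, on chromosome 16, had a pair of probe sets with differences of opposite sign. The dimmer gave 9.30, 9.52 and 9.27 in wild-type samples and 8.97, 8.91 and 8.92 in knockout samples. It fell by 0.43 on the log2 scale (limma adjusted p = 0.0467), and of the 2 probe sets on each side of it by number, the 1 with a gene name belongs to chromosome 16. The brighter gave 11.48, 11.52 and 11.46 and then 11.67, 11.88 and 11.73, a difference of 0.28 that did not pass limma (adjusted p = 0.13), and its neighbours by number belong to genes of chromosome 10; which locus it reads was not tested. Where the probes lie relative to the deleted part is not given in the sources used here, so neither probe set settles the labels.

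Of the 10 clock genes, the repressors Bhlhe41 and Bhlhe40 were higher in the knockout, while the activators, the Period and Cryptochrome genes and Dbp lay close to their wild-type levels, with differences between -0.09 and 0.22.

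Bhlhe41 gave 6.99, 6.81 and 7.14 in the wild-type samples 1 to 3 and 9.61, 9.84 and 9.87 in the knockout samples. The lowest knockout array stood above the highest wild-type array by more than the whole range within either genotype. The means were 6.98 ± 0.16 and 9.78 ± 0.14 (SD, n = 3), a log2 difference of 2.79 ± 0.11 (moderated SE; 95% interval 2.53 to 3.06), or 6.94-fold. The wild-type mean was dim and the knockout mean was not, so the size of the ratio rests on a wild-type signal that was not shown to be above background.

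Bhlhe40, the close relative of Bhlhe41, gave 6.46, 6.41 and 6.46 in wild-type samples and 7.07, 7.23 and 7.28 in knockout samples. The genotypes did not overlap, and the wild-type arrays were nearly equal (SD 0.028, n = 3) while the knockout arrays spread more (SD 0.11, n = 3). The difference was 0.75 ± 0.068 (SE, log2; 95% interval 0.59 to 0.91), or 1.68-fold. Both group means, 6.45 and 7.20, were dim, and on this probe set Bhlhe40 would be left out altogether by a filter on the dimmest 40% of probe sets. Of the pair, only the knockout signal of Bhlhe41 stood above the dim level.

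The activators were level. Arntl gave 8.85, 8.85 and 8.86 in wild-type samples and 8.83, 8.86 and 8.87 in knockout samples, a difference of 0.0018 ± 0.045 (SE, log2; 95% interval -0.11 to 0.11). Its spread within genotypes, an SD of 0.0156, was smaller than that of all but 0.667% of genes. Clock, its dimer partner, gave 10.14, 10.23 and 10.34 in wild-type samples and 10.29, 10.36 and 10.30 in knockout samples, and the groups overlapped. The Clock difference was 0.08 ± 0.066 (95% interval -0.08 to 0.24), so a change beyond 0.24 in either direction lay outside the interval.

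**Figure D1:**
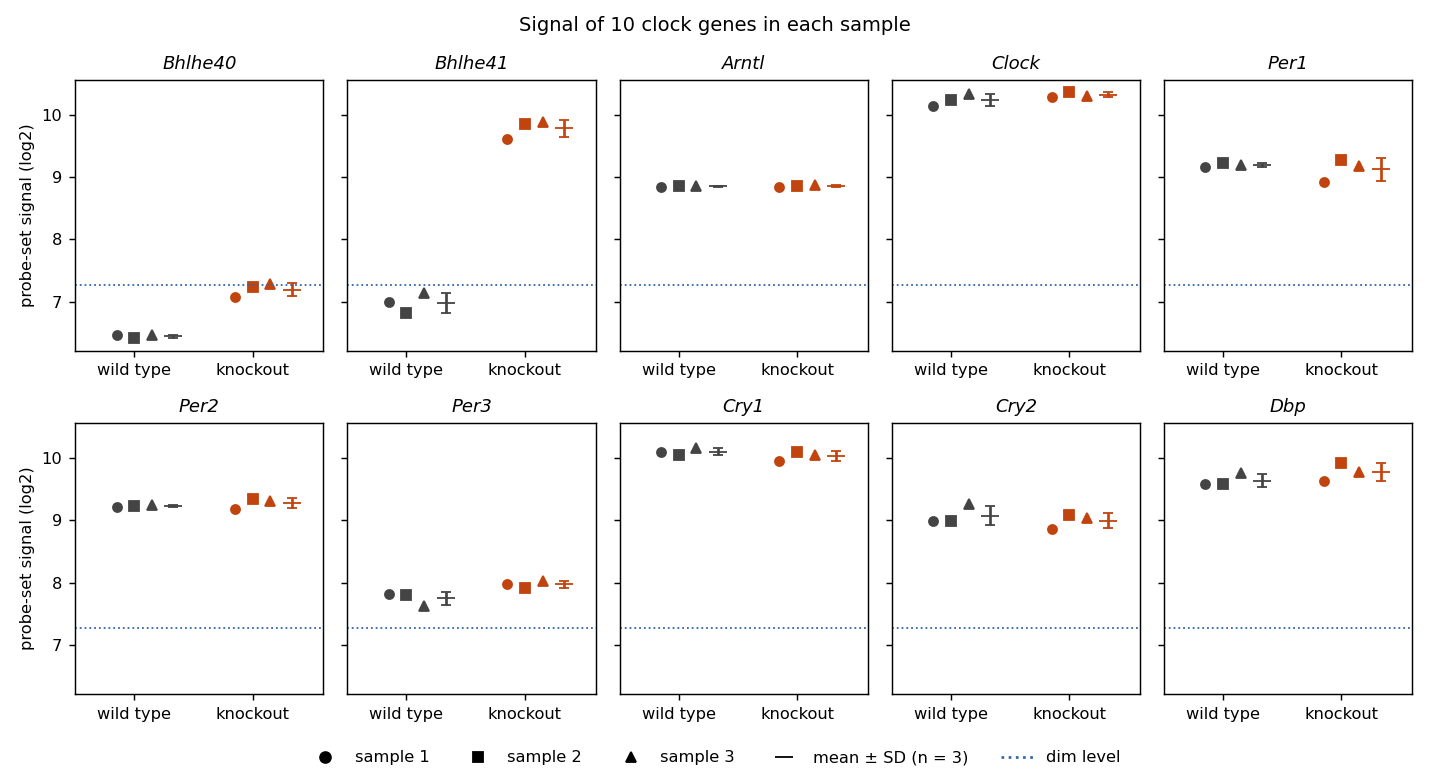
Log2 probe-set signal (vertical axis, the same in each panel) of the 10 clock genes in the 3 wild-type (grey) and 3 knockout (orange) samples; each marker is 1 array, the bars beside them are mean ± SD, and the dotted line is the dim level of 7.28. Bhlhe41 stands between 9.61 and 9.87 in the knockout against 6.81 to 7.14 in the wild type, Bhlhe40 is apart at a lower signal, and Per3 is apart by less.

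The Period genes encode the proteins that, with CRY, close the loop. Per1 gave 9.16, 9.23 and 9.20 in wild-type samples and 8.92, 9.28 and 9.18 in knockout samples, so the knockout arrays lay on both sides of the wild-type ones. Its difference was -0.07 ± 0.097 (SE, log2; 95% interval -0.31 to 0.17). Without knockout sample 1 it was 0.032, so the sign of this small difference rests on that array. Per2 gave 9.21, 9.22 and 9.25 in wild-type samples and 9.19, 9.34 and 9.31 in knockout samples, overlapping again, with a difference of 0.05 ± 0.059 (95% interval -0.09 to 0.19). Per3 was the exception among the 3 in that its groups did not overlap. It gave 7.82, 7.80 and 7.62 in wild-type samples and 7.98, 7.91 and 8.02 in knockout samples, a difference of 0.22 ± 0.072 (95% interval 0.05 to 0.40), or 1.17-fold, and it did not pass the adjusted threshold.

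The Cryptochromes, the other repressors of the dimer, overlapped between genotypes. Cry1 gave 10.10, 10.05 and 10.15 in wild-type samples and 9.94, 10.10 and 10.05 in knockout samples, a difference of -0.07 ± 0.062 (SE, log2; 95% interval -0.22 to 0.08). Cry2 gave 8.98, 8.99 and 9.25 in wild-type samples and 8.85, 9.09 and 9.03 in knockout samples, a difference of -0.09 ± 0.10 (95% interval -0.33 to 0.16). Wild-type sample 3 was the highest array for both genes, and without it the Cry2 difference was 0.0040. Dbp, a transcription factor driven by the clock and often used as its readout, gave 9.57, 9.58 and 9.76 in wild-type samples and 9.62, 9.92 and 9.77 in knockout samples. These overlapped too, and the Dbp difference was 0.14 ± 0.096 (95% interval -0.10 to 0.37).

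By limma, fitted on all 35556 probe sets with Benjamini-Hochberg adjustment at 0.05, 2 of the 10 clock genes were called higher and 0 lower, beside 4.43% of all genes in either direction and 3.08% of all probe sets; at an unadjusted p under 0.05 the counts were 3 and 0, beside 7.2% and 6.25% of all genes (13.4% in either direction). Over all 19938 genes, 2.42% were called higher and 2.01% lower. The groups did not overlap for 3 of the 10 genes, all higher in the knockout, beside 10.2% of all genes in that direction and 20.5% in either. The median difference of the 10 genes was 0.067 and that of all genes -0.0039. Because the genes were chosen with this comparison known, nothing is read from these counts. In bulk RNA, fewer cells carrying a transcript and less transcript per cell cannot be told apart.

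The arrays differed among themselves in a way that ran across the clock genes. Knockout sample 1 was the lowest of the 3 knockout arrays for 9 of the 10 genes, all but Per3, and for 43.3% of all genes. Knockout sample 2 was the highest for 6 of the 10, beside 54.8% of all genes, and wild-type sample 3 the highest of its genotype for 8, beside 39.6%. The 10 genes share these arrays, so such counts describe 6 libraries and are not independent readings. For Bhlhe40 and Bhlhe41 knockout sample 3 was the highest and knockout sample 1 the lowest of the knockout arrays. Over the 6 arrays the Pearson r of the pair was 0.994, which the genotype difference sets, and after each genotype's mean was subtracted it was 0.803 (n = 6 arrays, given as a description).

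The genes whose pattern over the 6 arrays was most like that of Bhlhe41 were Epha2, a receptor tyrosine kinase of ephrins (r = 0.9998, difference 1.65), P2rx3, an ATP-gated channel (0.9988, 1.58), Arhgap42 (0.9987, 2.38), Efhd1 (0.9987, 1.70) and Pja1 (0.9983, 1.07). For Bhlhe40 they were Neurl3 (r = 0.9992, log2 difference 1.34), Tnfsf8, which encodes CD30 ligand (0.9967, 2.16), Cpe, a carboxypeptidase (0.9965, 1.46), Lhx2, a homeobox factor (0.9965, 1.51) and Cyp2j9 (0.9965, 1.28). Likeness was Pearson's r over the 6 arrays among genes with a range of at least 1 log2 unit. Of 309 such genes, 144 had an r over 0.95 with Bhlhe41, and of 310, 151 had one with Bhlhe40, so closeness of this kind was common among genes of that range.

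Bhlhe40 and Bhlhe41 both lie on chromosome 6, far apart in gene order. Of the 3 protein-coding genes on each side of Bhlhe41, 5 were measured and differed by -0.18 to 0.16. By limma 0 of them passed and 1 had an unadjusted p under 0.05 (lowest adjusted p = 0.439), beside 4.43% and 13.4% of all genes. Around Bhlhe40, 3 of 6 neighbours were measured and differed by -0.18 to -0.05, again with 0 passing limma and 1 at an unadjusted p under 0.05 (lowest adjusted p = 0.358).

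Outside the 10 genes, Csnk1e and Tef were called higher in the knockout and Ciart lower, and the other clock genes measured did not pass the test. The calls were not equally firm. Csnk1e kept its call in all 19 alternatives, Tef lost it in 11 of 19, and Ciart lost it in 7 of 20. Ciart was called on the brighter of its probe sets and not on the dimmer. Of 37 further genes of the clock, 32 had a single-gene probe set; by limma 2 rose, 1 fell and 29 did not pass, beside 2.42% of all genes called higher and 2.01% lower. The 32 genes had a median difference of 0.0064 (all genes, -0.0039), and 5 were higher and 3 lower at an unadjusted p under 0.05, beside 7.2% and 6.25% of all genes. Groups were apart for 6 higher and 5 lower, or 11 of 32, beside 20.5% of all genes.

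**Figure D2:**
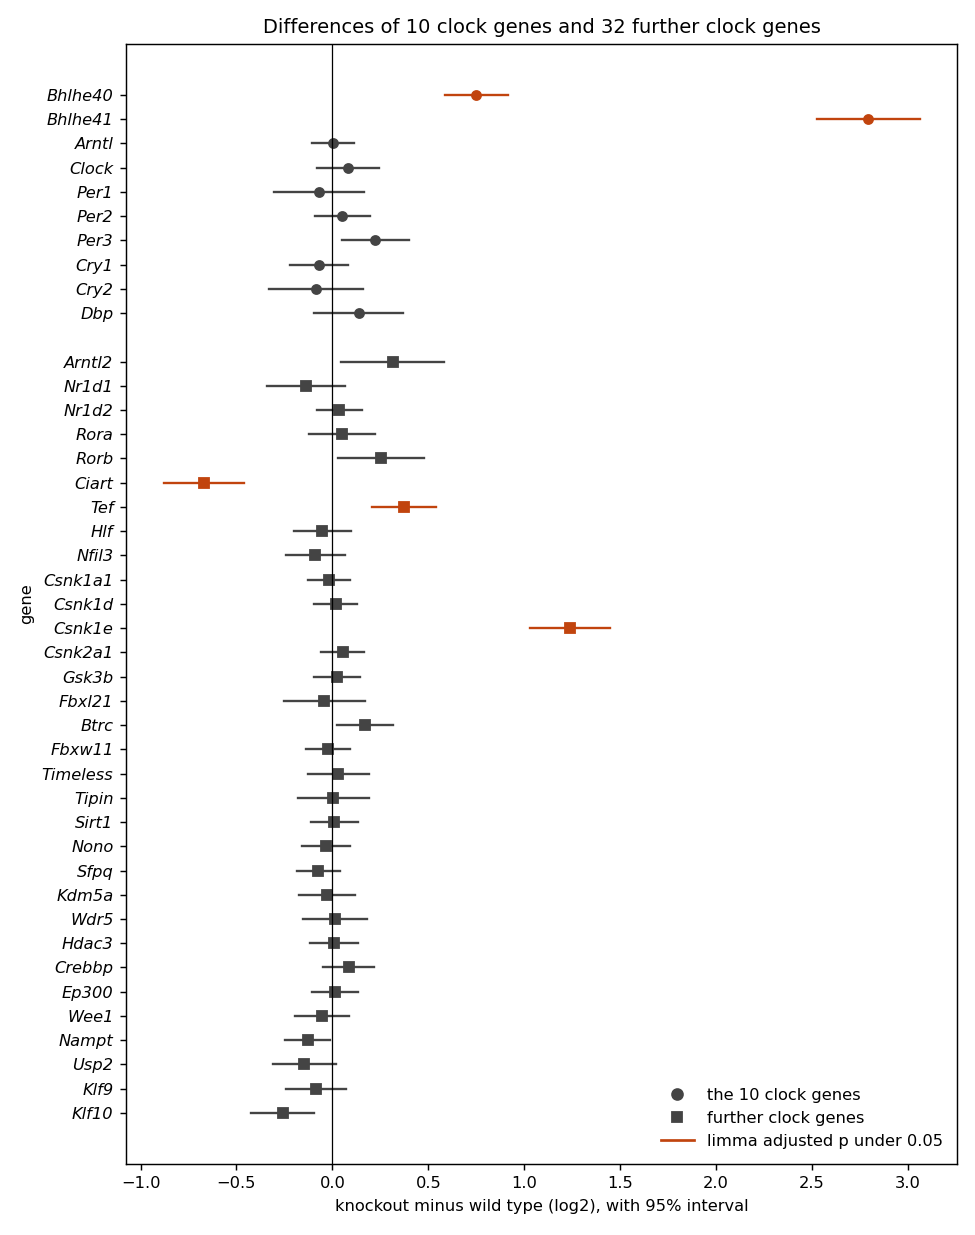
Knockout minus wild type on the log2 scale (horizontal axis, with the 95% interval of the moderated fit) for the 10 clock genes (circles) and 32 further clock genes (squares); orange marks a limma adjusted p under 0.05. Bhlhe41 (2.79), Csnk1e (1.24) and Bhlhe40 (0.75) lie to the right, Tef (0.37) less so, and Ciart (-0.67) to the left, while the other differences lie between -0.26 and 0.31.

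Csnk1e encodes casein kinase 1 epsilon, which phosphorylates PER proteins and sets the speed of the clock. It gave 9.52, 9.47 and 9.39 in wild-type samples and 10.55, 10.84 and 10.71 in knockout samples, with more than 1 log2 unit between the groups. The difference was 1.24 ± 0.087 (SE, log2; limma adjusted p = 0.00124), or 2.36-fold, and Csnk1e kept its call in each alternative fit. Its 6 nearest protein-coding neighbours on chromosome 15 differed by -0.24 to 0.22. By limma 0 passed, and 1 had an unadjusted p under 0.05, beside 4.43% and 13.4% of all genes. The sister kinase Csnk1d was bright and level at 12.07 and 12.09, a difference of 0.02 (95% interval -0.09 to 0.13), as was Csnk1a1, with a difference of -0.02 (95% interval -0.13 to 0.09). Of the 10 measured kinases, ubiquitin ligases and partner proteins, Csnk1e rose, none fell and 9 did not pass limma (2 higher and 0 lower at an unadjusted p under 0.05). Beside this, 2.42% of all genes were called higher and 2.01% lower, with 7.2% and 6.25% at an unadjusted p under 0.05.

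Ciart, whose promoter held 3 E-boxes, had a pair of probe sets, both lower in the knockout. The brighter gave 9.94, 10.01 and 9.86 in wild-type samples and 9.16, 9.43 and 9.21 in knockout samples, a difference of -0.67 ± 0.086 (SE, log2; limma adjusted p = 0.0122), or 1.59-fold lower. The dimmer gave 9.10, 8.98 and 9.27 and then 8.59, 8.72 and 8.76, without overlap, a difference of -0.42 ± 0.091 that did not pass limma (adjusted p = 0.0819). Probe sets with numbers next to the brighter one belong to genes of chromosome 10, and those next to the dimmer one to genes of chromosome 3, where Ciart lies, and which locus the brighter one reads was not tested. By limma the brighter one lost its call when wild-type samples 1 and 2 or knockout sample 3 were each removed (adjusted p = 0.0658, 0.0577 and 0.0639; alternatives together spanned 0.00118 to 0.144).

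Tef, a D-box factor of Dbp's family, gave 7.996, 8.04 and 8.15 in wild-type samples and 8.52, 8.44 and 8.35 in knockout samples. The groups did not overlap, and the difference was 0.37 ± 0.069 (SE, log2; limma adjusted p = 0.047). Removing any 1 of the 6 samples ended this call (limma adjusted p from 0.0668 to 0.19), and the alternatives together spanned 0.011 to 0.338. Hlf, the other factor of that family, was dim in both genotypes at 6.85 and 6.80. Nfil3, which represses the same sites, was dim in the knockout at 7.19 and differed by -0.09 (95% interval -0.24 to 0.06).

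**Figure D3:**
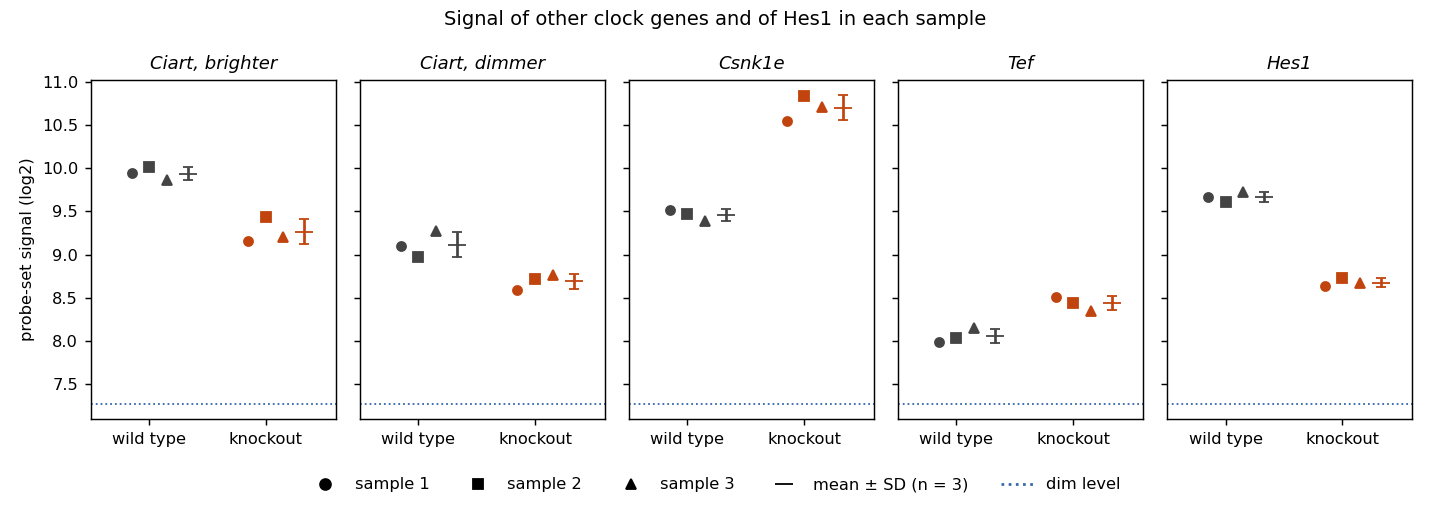
Log2 probe-set signal (vertical axis, the same in each panel) of Ciart by its brighter and dimmer probe set, Csnk1e, Tef and Hes1 in the 3 wild-type (grey) and 3 knockout (orange) samples, with mean ± SD beside them and the dim level of 7.28 as a dotted line. The groups are apart in each panel, by most for Csnk1e (9.39 to 9.52 against 10.55 to 10.84) and Hes1, and by least for Tef and the dimmer Ciart probe set.

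The nuclear receptors of the clock's other loop, which act on Arntl, did not pass. Nr1d1, a heme-binding repressor also called REV-ERB alpha, gave 9.84, 9.86 and 10.04 in wild-type samples and 9.67, 9.88 and 9.77 in knockout samples, a difference of -0.14 (95% interval -0.34 to 0.06). Its relative Nr1d2 differed by 0.04 (95% interval -0.08 to 0.15) and the activator Rora, dim in both genotypes, by 0.05. Rorb, and Arntl2, a relative of Arntl and not a receptor, had higher values in the knockout, by 0.26 and 0.31. Neither passed limma (adjusted p = 0.357 and 0.342, unadjusted p = 0.031 and 0.029). Their groups did not overlap, beside 10.2% of all genes in that direction, and 7.2% of all genes were higher at an unadjusted p under 0.05. Arntl2 was dim in both genotypes. None of the 8 measured cofactors passed limma, and 0 had an unadjusted p under 0.05, beside 4.43% and 13.4% of all genes. Their differences ran from -0.07 to 0.08. Of the 5 clock-controlled output genes, 0 passed limma and 2 were lower at an unadjusted p under 0.05, beside 6.25% of all genes. Dbp, a clock output counted with the 10 genes, differed by 0.14. All 5 of the output list had a negative difference, from -0.26 to -0.05 (median -0.13, beside -0.0039 for all genes). The largest difference among them was that of Klf10, a zinc finger factor, at -0.26 (adjusted p = 0.158); Nampt, an enzyme of NAD synthesis, differed by -0.13 (adjusted p = 0.384) and Wee1, a cell cycle kinase, by -0.05 (adjusted p = 0.904).

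Bhlhe40 and Bhlhe41 belong to the same broad family of repressors as the Hes and Hey genes, the best known targets of Notch. Of 10 such genes, Hes1 fell and 9 did not pass limma; 0 rose, and at an unadjusted p under 0.05 the counts were 0 higher and 1 lower. Over all genes, 4.43% were called and 13.4% had an unadjusted p under 0.05. Hes1 gave 9.67, 9.61 and 9.73 in wild-type samples and 8.63, 8.73 and 8.67 in knockout samples, far apart relative to an SD of 0.057 and 0.049 (n = 3 each). The difference was -0.99 ± 0.056 (SE, log2; limma adjusted p = 0.000575), or 1.99-fold lower, and it kept its call in each alternative fit. Hes1 lies on chromosome 16, as does Etv5, and any tie of its fall to that shared chromosome was not tested. Hes6, Helt and Hes2 came next by p and differed by 0.14, 0.08 and -0.04 (limma adjusted p = 0.575, 0.929 and 0.943), and Helt was dim in both genotypes. The median of the 10 was 0.021.

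Genes known from B-1 cells, the innate-like B cells that need BHLHE41, did not move one way. Of 9 measured, Itgam rose, Ctla4, Cd5 and Cd9 fell and 5 did not pass limma, beside 2.42% of all genes called higher and 2.01% lower; the median difference of the 9 was -0.072. Ctla4, an inhibitory receptor of lymphocytes, gave 9.28, 9.24 and 9.48 in wild-type samples and 7.76, 7.93 and 7.95 in knockout samples. It fell by 1.45 on the log2 scale (SE 0.088, limma adjusted p = 0.000729), or 2.74-fold, and kept its call in each alternative fit. Cd5, the surface marker of B-1a cells, fell by 0.72 (adjusted p = 0.0156) and the tetraspanin Cd9 by 0.96 (adjusted p = 0.0174), while the integrin Itgam, also a myeloid marker, rose by 0.60 (adjusted p = 0.0235) from a wild-type mean of 7.24, which was dim. Cd5 lost its call without any 1 of the wild-type samples or knockout sample 3 (highest limma adjusted p = 0.0702). Cd9 lost it without wild-type sample 1 or 2 or knockout sample 2 (0.0863), and Itgam without wild-type sample 1 or 3 or knockout sample 1 or 2 (0.112). The summed log2 signal of the 7 myeloid markers given above ran from 48.3 to 49.5 in wild-type samples. In knockout samples it ran from 49.0 to 50.3. Within that sum Ly6g differed by 1.14, while the other 6 differed by -0.32 (Lyz2) to 0.05 (Elane), and the median of the 7 was -0.02. The part of these markers in the Itgam result was not tested. Spn, encoding CD43, differed by -0.03 and the transcription factor Arid3a by 0.24 without passing (adjusted p = 0.978 and 0.14), and Lin28b and Il10 were dim in both genotypes.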

How the data were processed

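RNA from 6 samples was read on 1-colour Affymetrix expression arrays. The authors deposited 1 value per sample for 35556 probe sets, taken here as log2 from its range of 2.58 to 14.71. The submitters' processing notes name RMA, which corrects background, quantile-normalizes and summarises probes, and Partek 6.5. RMA compresses differences of dim probe sets, no detection calls were given, and the number of arrays limits the precision. For its settings, and for the test the submitters ran, nothing is given in the sources used here.

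Groups came from sample titles and gene names from the platform annotation: 21789 probe sets had 1 symbol, 1621 several and 12146 none listed. Knockout against wild type was estimated by lmFit and eBayes (limma 3.58.1, R 4.3.3; no covariate, no filter; total df 6.23), with Benjamini-Hochberg adjustment over all probe sets. The fit was tried on simulated data with independent noise, which held no effects shared across an array, so nothing is read from it about these 6 arrays. An exact permutation test of 3 against 3 cannot go below p = 0.1 and was not used.

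The members and lists were chosen with earlier results of these data known. Named were all members, list genes that passed, the 4 of smallest p per list, Etv5, and the 5 genes most like Bhlhe41 and Bhlhe40; other names were added after their values were seen. The alternatives tried were a block for sample number, a dim filter, single-gene probe sets, 3 normalizations, a variance trend, array weights, other thresholds, probe-set means and samples left out.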

Additional observations from a re-analysis of the deposited data

How the results depend on the processing

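Bhlhe41, Csnk1e, Hes1 and Ctla4 kept their direction and call in each alternative run. Bhlhe40 was not tested under the dim filter, which left 1 clock gene called higher, and it lost its call when wild-type sample 3 and knockout sample 3 were left out together (1 clock gene called higher). No label says that equal sample numbers pair the samples, and same-numbered samples did not deviate together throughout (r = -0.12, 0.016 and 0.259). With the sample number as a replicate block, 544 probe sets were called against 1095, 1 further clock gene rose (Csnk1e, without Tef), and no other count of list genes changed. With a trend and robust settings 1 further clock gene rose. At a threshold of 0.01 there were 538 probe sets, 1 further clock gene higher and 0 lower, and 0 B-1 cell genes higher and 1 lower.

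Leaving out 1 sample gave 565 to 857 probe sets, 1 further clock gene higher, 0 to 1 lower, 0 to 1 B-1 cell genes higher and 1 to 3 lower. The probe-set count was 565, 620 and 586 without wild-type sample 1, wild-type sample 2 and knockout sample 3. In fits chosen after seeing the data, leaving out wild-type sample 2 and knockout sample 1 left 347 probe sets, 1 further clock gene higher and 0 lower, and 0 B-1 cell genes higher and 1 lower; leaving out wild-type sample 3 and knockout sample 3 left 272 probe sets, 1 further clock gene higher and 0 lower, and 0 B-1 cell genes higher. Fewer samples leave fewer degrees of freedom. With the other Ciart probe set, 0 further clock genes fell.

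The signs that turned belonged to differences that were not called in the fit with no covariate and no filter. Leaving out 1 sample, Arntl ran from -0.0056 to 0.013, Per1 from -0.14 to 0.032 and Cry2 from -0.13 to 0.0040. Arntl became -0.0062 after quantile normalization, -0.0036 with array medians subtracted, -0.0069 after cyclic loess, and -0.00084 without wild-type sample 3 and knockout sample 3. Per1 became 0.032 without knockout sample 1 and 0.049 without wild-type sample 2 and knockout sample 1. Cry2 became 0.0040 without wild-type sample 3, Helt -0.0015 with array weights and Hes2 0.0057 without wild-type sample 3 and knockout sample 3. The brighter Etv5 probe set, averaged with the other, gave -0.078. On its own it gained a call, higher in the knockout, in 2 alternatives. These were single-gene probe sets and a trend with robust settings (limma adjusted p = 0.0486 and 0.0437).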
